A study of Mus musculus with 12 samples.

Results

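The Roundabout (Robo) receptors and their Slit ligands were described in hematopoietic stem cells (HSCs). The members were chosen by symbol, as the rows of the expression table for Robo1, Robo2, Robo3, Robo4, Slit1, Slit2 and Slit3. Robo3 led the choice because it was higher with the NrasG12D allele, so its level with that allele is given as a description with no test. Of these 7 genes, 5 were found among the 18546 genes of the table (Robo1, Robo3, Robo4, Slit2 and Slit3), and Robo2 and Slit1 were not analysed here. Of the 5, Robo3 and Robo4 passed the minimum for testing, at least 1 RPKM in at least 3 libraries, where RPKM is reads scaled to the length of the gene and the size of the library. Robo3 passed it only through the 6 libraries that carry NrasG12D, its lowest value among them being 1.42 RPKM and its highest value among the other 6 being 0.638 RPKM.

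The HSCs were sorted from bone marrow of C57BL/6 mice at 10 to 12 postnatal weeks by the SLAM gate: CD150-positive, CD48-negative, lineage-negative, Sca1-positive and cKit-positive. There were 3 libraries of each of 4 genotypes: wild type, NrasG12D/+ (1 activated allele of the Ras GTPase Nras), Tet2+/- (1 lost allele of Tet2, whose enzyme oxidizes methylated cytosine), and both together, NrasG12D/+;Tet2+/-, called double mutant here. The study asked how gene expression differs in pre-leukemic stem cells that carry both alleles. The labels give no driver or construct for either allele, and give 3 mice a group without saying which library is which mouse, so the spread between libraries may be partly technical. Ribosomal RNA and mitochondrial RNA were removed from the total RNA.

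Robo receptors are single-pass membrane proteins of the immunoglobulin superfamily that bind secreted Slit proteins and steer axons, migrating cells and vessels through small GTPases and the actin cytoskeleton. Robo3 is known mainly from commissural neurons, where it lets axons cross the midline, and mammalian Robo3 has lost high-affinity Slit binding. Robo4 is the receptor of endothelium and HSCs and is known for a part in keeping HSCs in the marrow niche together with the chemokine receptor Cxcr4.

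Robo3 and Robo4 are neighbours on chromosome 9. In GENCODE M21 (mm10), Robo3 (ENSMUSG00000032128) spans chr9:37415669-37433246 on the minus strand and Robo4 (ENSMUSG00000032125) spans chr9:37401897-37415115 on the plus strand. The 2 genes point toward each other with 553 bases between their ends, and no other annotated gene overlaps either of them. The upstream sequence of both genes is shown as a description, from 250 to 76 bases before the RefSeq start (GRCm38.p6), 5′ to 3′ on the gene's strand. Capitals mark CpG dinucleotides, the substrate of DNA methylation and of TET enzymes.
Robo3, chr9:37433251-37433425, minus strand: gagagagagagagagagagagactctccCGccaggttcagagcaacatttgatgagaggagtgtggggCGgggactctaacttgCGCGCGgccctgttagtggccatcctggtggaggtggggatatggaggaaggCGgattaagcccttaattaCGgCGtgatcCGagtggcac
Robo4, chr9:37401722-37401896, plus strand: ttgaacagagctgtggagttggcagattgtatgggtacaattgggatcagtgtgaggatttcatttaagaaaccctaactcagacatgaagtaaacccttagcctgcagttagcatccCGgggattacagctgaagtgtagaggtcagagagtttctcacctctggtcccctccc
The Robo3 window held 9 CpG and 57.7% G plus C, and 27.0% of 32851 RefSeq promoters had at least as many CpG in the same window. The Robo4 window held 1 CpG and 47.4% G plus C, and 86.8% of promoters had at least as many. The ETS motif ACCGGAAGT, which occurred in 0.29% of promoters, and the AP-1 motif TGANTCA, which occurred in 4.78%, had no match on either strand in these 2 windows. Most promoters lack these exact motifs, so their absence does not set the 2 windows apart. Shorter forms of the motifs, and bases nearer to the start than 76, were not searched. DNA methylation and chromatin were not measured in the data used here, and the part of these sequences in the levels of Robo3 and Robo4 was not tested.

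Depth was 19205045 to 36890942 reads in genes per library, recovered from the table. Wild-type library 1 (3824 genes at 0 reads) and NrasG12D library 2 (3268) stood apart in genes not detected, against 1000 in wild-type library 2, the lowest. Levels of Xist and Y-linked genes put all libraries numbered 1 as male and all numbered 2 as female, and of those numbered 3 only the Tet2+/- library as male. The gate markers fitted the label: Kit lay between 64.7 and 86.0 RPKM, Slamf1 (CD150) between 3.17 and 11.3 and Ly6a (Sca1) between 2.21 and 8.32, while the median of Cd48 was 0.00412, its value at 0 reads, with a highest value of 1.28. All genotypes were compared in 1 limma fit over the 15478 genes that passed the minimum, with Benjamini-Hochberg adjustment at 0.05.

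Robo3, the receptor with the widest range, was lowest in wild type and highest in double mutants. It measured 0.149, 0.194 and 0.0737 RPKM in wild-type libraries 1 to 3, from 61, 99 and 52 reads. The Tet2+/- libraries gave 0.638, 0.446 and 0.18 RPKM, from 445, 237 and 98 reads. The lowest Tet2+/- library (0.18) lay under the highest wild-type library (0.194), so these 2 groups overlapped. The NrasG12D/+ libraries gave 1.85, 1.42 and 2.67 RPKM, from 1134, 856 and 1997 reads. The double mutants gave 3.5, 3.25 and 3.06 RPKM, from 1520, 2258 and 1830 reads. Every NrasG12D/+ library was above every wild-type and Tet2+/- library, and every double mutant was above every NrasG12D/+ library.

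**Figure D1:**
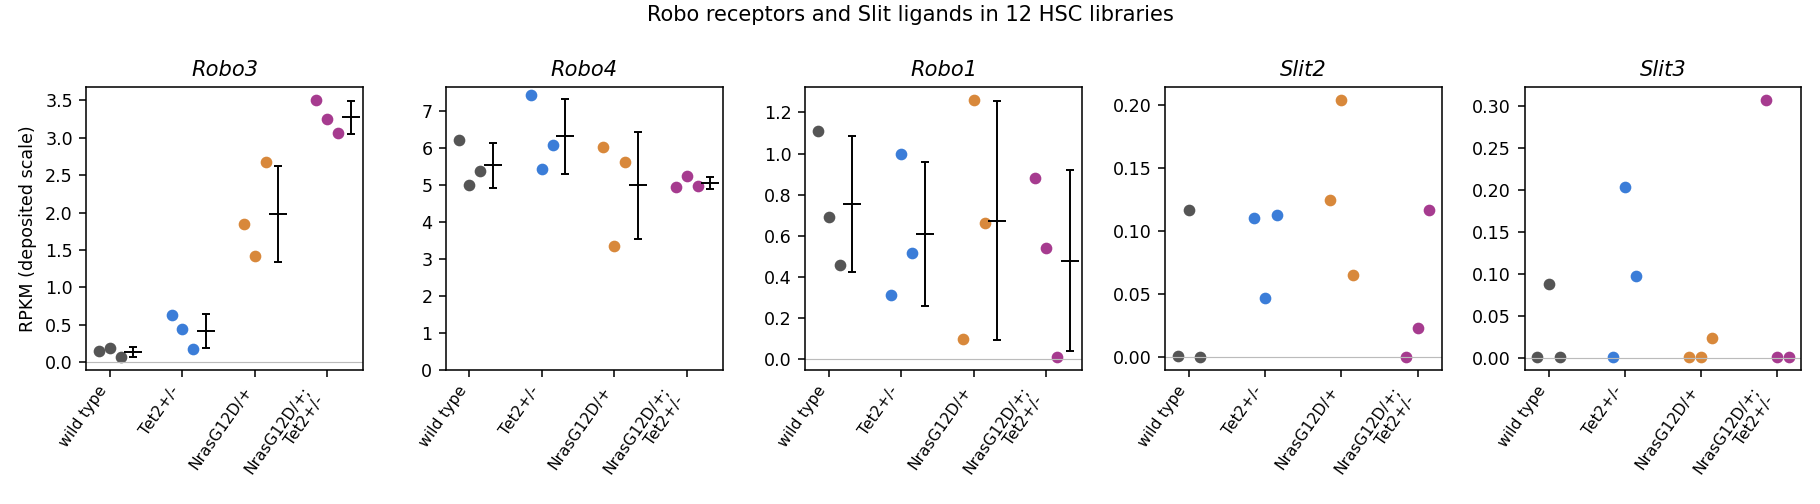
RPKM on the deposited scale (y axis, a separate range for each gene) of the 5 members by genotype, with 1 point per library and, for Robo3, Robo4 and Robo1, the mean with its SD beside the points. Robo3 climbs from 0.0737 to 0.194 in wild type to 3.06 to 3.5 in double mutants, Robo4 stays between 3.34 and 7.45 in all 12 libraries, and Robo1, Slit2 and Slit3 are scattered within genotypes.

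The mean Robo3 level was 0.139 ± 0.0606 RPKM in wild type (SD, n = 3), 0.422 ± 0.230 in Tet2+/-, 1.98 ± 0.634 in NrasG12D/+ and 3.27 ± 0.221 in double mutants. The mean of NrasG12D/+ was 14.3-fold that of wild type, and the mean of double mutants was 23.6-fold that of wild type and 7.75-fold that of Tet2+/-. These 3 folds hold the difference Robo3 was chosen for. Its log2 differences, also with no test, were 3.90 for NrasG12D/+ against wild type, 4.67 for double mutants against wild type, 3.13 for double mutants against Tet2+/- and 3.52 for the Nras allele averaged over the Tet2 genotypes. Without the 2 libraries with many undetected genes, the first of these was 4.22 and the last 3.68. In these comparisons limma called 0.00646%, 0.00646%, 0.00646% and 0.0323% of all genes tested. Non-overlapping higher values, as Robo3 had, occurred in 5.27%, 6.09% and 6.22% of genes in the first 3 comparisons and in 0.459% of genes for the 6 carriers of NrasG12D against the 6 other libraries.

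Of the members on either side of the test minimum, Robo3, inside, reached 1 RPKM in 6 libraries, and Robo1, outside, reached it in 2, wild-type library 1 and NrasG12D/+ library 2.

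The Tet2 allele played no part in the choice of Robo3, so the differences between Tet2 genotypes were tested. Robo3 entered these tests only through the carriers of NrasG12D, and every wild-type and Tet2+/- library lay under 1 RPKM. The p-values are limited by that. Mean Robo3 was 3.04-fold higher in Tet2+/- than in wild type, by 1.53 ± 0.68 on the log2 scale (SE; 95% interval 0.03 to 3.04), which did not pass (limma adjusted p = 1). The difference kept its direction in 19 of 20 other settings and was -0.07 with quantile normalization. With no minimum on RPKM its 95% interval was -0.02 to 3.09 (limma adjusted p = 0.9923). Among double mutants the mean was 1.65-fold that of NrasG12D/+, a log2 difference of 0.77 ± 0.68 (95% interval -0.73 to 2.27, limma adjusted p = 1). Between these latter groups Robo3 did not overlap, which held with the double mutants higher for 4.15% of all genes, and limma called 0% of genes in that comparison (625 genes had an unadjusted p under 0.05, and voom called 0). Limma called 0.00646% of genes in Tet2+/- against wild type. Averaged over both Nras genotypes, libraries with the Tet2 allele were higher by 1.15 ± 0.48 on the log2 scale (95% interval 0.09 to 2.21). The limma p was 0.03661 and the adjusted p 0.9626, which did not pass. Over 19 other settings the difference ran from 0.33 to 1.41, with a limma adjusted p of at least 0.8258. Limma called 0% of genes for that averaged allele (589 had an unadjusted p under 0.05, and voom called 0). The interaction of the alleles also holds the difference Robo3 was chosen for, so it is given as a description. It was -0.76 ± 0.96 (95% interval -2.89 to 1.36), where limma called 0.0129% of all genes. It turned to 0.79 with quantile normalization and 0.13 on the log2(RPKM + 0.5) scale.

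**Figure D2:**
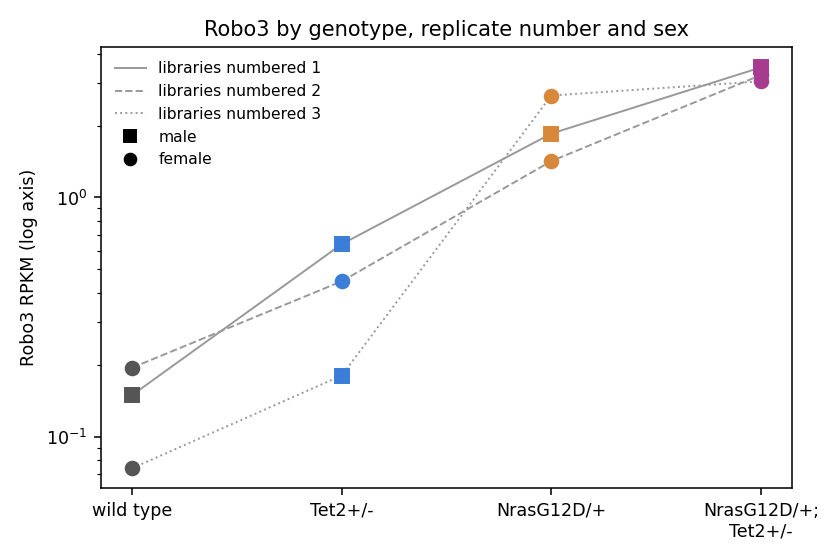
Robo3 RPKM on a log axis (y) by genotype (x), with lines joining libraries of the same replicate number and squares for male and circles for female libraries. Each line goes up at every step from wild type through Tet2+/- and NrasG12D/+ to the double mutant, and the libraries numbered 3 show the steepest step, from 0.18 to 2.67 RPKM.

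Libraries of the same number gave the same order of the 4 genotypes in all 3 numbers, as for 3 of all genes tested (0.0194%), and most of that order is the difference Robo3 was chosen for. The double mutant was 1.89-, 2.28- and 1.15-fold the NrasG12D/+ library of its number, and the Tet2+/- library was 4.29-, 2.31- and 2.45-fold the wild-type library of its number. NrasG12D/+ against wild type spanned 7.35- to 36.2-fold, with the widest fold among the libraries numbered 3, where wild type was at its lowest. The numbers do not pair the libraries across all genes, so these folds are only a description. Split by sex, only 1 or 2 libraries of a genotype remained in each sex, too few to judge overlap. Within each sex Robo3 ran in the order wild type, Tet2+/-, NrasG12D/+, double mutant, as did 3 of all genes (0.0194%). Most of that order, too, is the difference Robo3 was chosen for. The part of sex in the overlap of wild type and Tet2+/- over both sexes was not tested. Male libraries ran 0.149 RPKM, then 0.18 and 0.638, then 1.85, then 3.5, and female libraries ran 0.0737 and 0.194, then 0.446, then 1.42 and 2.67, then 3.06 and 3.25.

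The order of Robo3 was set beside that of all genes after it had been seen. Of 15478 genes tested, 1 (0.00646%), Robo3 itself, had every double mutant above every NrasG12D/+ library and every NrasG12D/+ library above every wild-type and Tet2+/- library. Part of that order is the difference it was chosen for, and the share is a description. Summed markers of HSCs (Mecom, Procr, Hlf, Esam, Fgd5 and Hoxb5, 6 genes) lay at 105 to 132 RPKM in wild type, 127 to 131 in Tet2+/-, 77.8 to 111 in NrasG12D/+ and 79.8 to 112 in double mutants. The sum was lower in NrasG12D carriers apart from an overlap between 105 and 112 RPKM with wild type, and its part in the Robo3 result was not tested. Hlf, with a median of 52.7 RPKM, was the largest of the 6 genes. The sum of the gate markers Slamf1, Kit, Ly6a and Cd48, the last one low by the gate, was not lower in carriers than in wild type. It was 74.9 to 83.4 RPKM in wild type, 86.7 to 89.6 in Tet2+/-, 82.2 to 96.8 in NrasG12D/+ and 87.3 to 96.7 in double mutants. Kit, at 64.7 to 86.0 RPKM, made up most of that sum, so a change in Slamf1 or Ly6a could not be read from it. In sorted cells measured in bulk, more cells with Robo3 and more Robo3 RNA per cell cannot be told apart.

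Robo4, the receptor of endothelium and HSCs, was detected in every library. It measured 6.22, 5.01 and 5.38 RPKM in wild type and 7.45, 5.45 and 6.08 in Tet2+/-. The NrasG12D/+ libraries gave 6.03, 3.34 and 5.62 RPKM and the double mutants 4.96, 5.25 and 4.97. The 12 libraries held 1501 to 3890 Robo4 reads each. All groups overlapped wild type, the lowest library was NrasG12D/+ library 2, and the 3 double mutants lay below the 3 Tet2+/- libraries, as 6.53% of all genes did.

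Robo4 passed the limma threshold in none of the 8 comparisons, where 0 to 5 genes in all were called. Its means were 5.54 ± 0.616 RPKM in wild type (SD, n = 3), 6.32 ± 1.02 in Tet2+/-, 4.99 ± 1.45 in NrasG12D/+ and 5.06 ± 0.162 in double mutants. The log2 difference was -0.19 ± 0.24 for NrasG12D/+ against wild type (SE; 95% interval -0.73 to 0.35, limma adjusted p = 0.9274), with the sign turned by leaving out NrasG12D/+ library 2 (0.08). It was -0.25 ± 0.17 for the Nras allele averaged over the Tet2 genotypes (95% interval -0.63 to 0.13, limma adjusted p = 0.8227). The double mutant against Tet2+/-, where the groups did not overlap, gave -0.31 (95% interval -0.85 to 0.23, limma adjusted p = 0.9652). The 95% intervals for Robo4 thus leave room for changes of less than 1 log2 unit in these 3 comparisons.

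**Figure D3:**
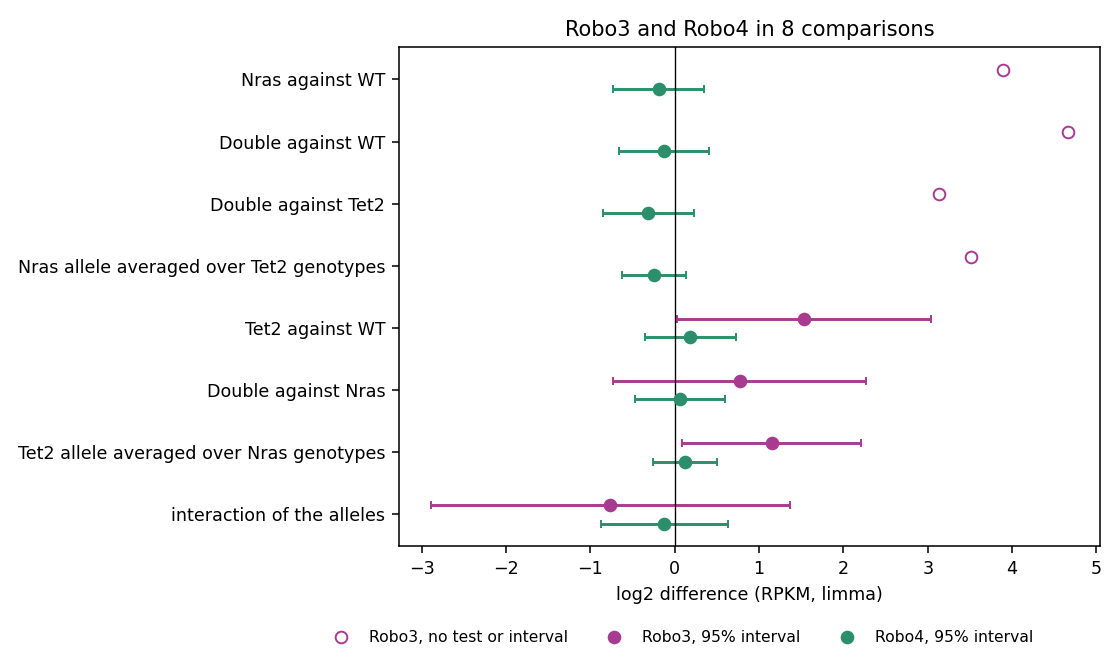
Log2 differences (x axis) of Robo3 and Robo4 in the 8 comparisons (y axis) from the limma fit over 12 libraries, with 95% intervals. Open circles are Robo3 in the comparisons of carriers with non-carriers of NrasG12D, drawn with no interval. The interaction, which also holds the difference Robo3 was chosen for, is drawn with its interval as a description. Every Robo4 interval spans 0.

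Relative to its neighbour, Robo3 was a minor transcript in wild type and closer to Robo4 in carriers of NrasG12D. Levels of different genes were compared per kilobase of the GENCODE M21 exon union, since the lengths behind the deposited values were 3.0 times that union for Robo3, 2.9 times for Robo4 and 0.46 times for Robo1. On that scale Robo3 was 2.47%, 3.99% and 1.41% of Robo4 in wild-type libraries 1 to 3 and 8.86%, 8.47% and 3.06% in Tet2+/-. It was 31.7%, 44.2% and 49.2% in NrasG12D/+ and 73.0%, 64.0% and 63.7% in double mutants. The order of the genotypes was as for Robo3 alone. On the same exon-union scale Robo4 was the most abundant member in every genotype, at 14.5 ± 4.21 to 18.3 ± 2.96 reads per kilobase scaled to library size, and Robo3 came second, at 0.415 ± 0.182 in wild type and 9.80 ± 0.663 in double mutants. Robo1 followed at 0.344 ± 0.152 in wild type, which did not differ from Robo3 there beyond their spread. The deposited scale gave the opposite order in wild type, 0.752 RPKM for Robo1 and 0.139 for Robo3. For Robo1 the exon union is longer (16511 bases) than the length behind the deposited values (7563 bases), which lowers its level here. The order of Robo1 and Robo3 in wild type thus depends on the length used.

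Robo1, the widely expressed Slit receptor, was scattered within every genotype. It measured 1.11, 0.69 and 0.457 RPKM in wild type from 168, 130 and 119 reads, and 0.312, 0.997 and 0.515 in Tet2+/- from 80, 195 and 103 reads. The NrasG12D/+ libraries gave 0.0985, 1.26 and 0.662 RPKM from 22, 279 and 182 reads. The double mutants gave 0.883, 0.54 and 0.0102 RPKM from 141, 138 and 2 reads. All genotypes overlapped one another, and the range within double mutants covered most of the range of the 12 libraries. Libraries at or near 0 were common at this depth: of 875 genes with mean reads within 1.2 times that of Robo1, 54.3% had a library at 0 reads.

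The Slit ligands, secreted proteins that bind Robo1 and Robo2, were low and scattered, Slit2 with a median of 192.5 reads per library and Slit3 with most libraries at 0. Slit2 had 1, 212 and 0 reads in wild type, 271, 88 and 217 in Tet2+/-, 271, 434 and 173 in NrasG12D/+ and 0, 56 and 247 in double mutants, with at most 0.204 RPKM. Slit3 had 0, 16 and 0 reads in wild type, 0, 39 and 19 in Tet2+/-, 0, 0 and 6 in NrasG12D/+ and 48, 0 and 0 in double mutants, with at most 0.307 RPKM. Slit2 was detected in every single-mutant library and at 0 or 1 read in 2 wild-type libraries and 1 double mutant, while Slit3 was at 0 reads in 7 of 12 libraries. For Slit3, 3 reads correspond to 0.0111 to 0.0202 RPKM in a library, which is the level that a count of 0 allows for counting error only. By the same band, of 896 genes with mean reads like Slit2, 14% had as many libraries at 0, and of 426 genes like Slit3, 81.9% did. With no minimum on RPKM, the adjusted p of Robo1, Slit2 and Slit3 in limma was at least 0.866 in all 8 comparisons.

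Other cell types that express these genes were looked for by their markers. Of 10 endothelial markers 7 were measured, summing to 39.1 to 40.7 RPKM in wild type, 39.4 to 45.7 in Tet2+/-, 35.8 to 45.4 in NrasG12D/+ and 43.9 to 47.2 in double mutants; Tie1, Tek and Pecam1, which HSCs also express, made up most of it, and Flt1 did not exceed 0.0846. The sum was higher in double mutants than in wild type, and its part in the Robo3 result was not tested. Of 10 stromal markers 3 were measured, summing to at most 3.29 RPKM, and the 5 neuron markers were not analysed here. Of 5 markers of T and NK cells 3 were measured, summing to 1.3 to 2.86 RPKM in wild type and 1.05 to 4.49 in Tet2+/-. They summed to 1.04 to 11.1 in NrasG12D/+ and 2.3 to 8.05 in double mutants. Nkg7 alone reached 11.1 RPKM, while Cd4 did not exceed 1.66 and Cd8a did not exceed 0.29 in any library. Sums reached at most 1.17 RPKM for B cells (1 of 5 measured), 8.62 for granulocytes and monocytes (5 of 6) and 8.7 for erythroid cells (3 of 5). The part of these blood lineages in the Robo3 result was not tested.

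The cytoplasmic and co-receptor genes of the pathway did not pass the test. A list of 63 genes in 5 roles had 54 in the table and 45 past the minimum, and 0 rose and 0 fell in each of the 8 comparisons, by limma and by voom on the recovered reads. For the Nras allele averaged over the Tet2 genotypes, 19 of the 45 differences were above 0, with a median of -0.04 against -0.01 over all genes tested, and limma gave 7 of the 45 an unadjusted p under 0.05, against 1121 of all 15478 genes. For the Tet2 allele averaged over the Nras genotypes, 33 of 45 were above 0, with a median of 0.06 against 0.02, and 1 had an unadjusted p under 0.05, against 589 of all genes.

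Among small GTPases and their regulators (16 of 17 tested), Rac2, the hematopoietic Rac, had the smallest p of the list. Rac2 measured 45.0, 39.8 and 45.1 RPKM in wild type, 37.8, 36.6 and 35.1 in Tet2+/-, 31.0, 29.2 and 31.7 in NrasG12D/+ and 31.6, 34.7 and 30.3 in double mutants. Every carrier of NrasG12D was below every other library, as in 0.388% of all genes. Its log2 difference for the averaged Nras allele was -0.34 ± 0.06 (SE, limma unadjusted p = 0.0003142, adjusted p = 0.2211), which did not pass. Rac1, its widely expressed relative, gave -0.23 (limma adjusted p = 0.4809), and Dock1, an exchange factor for Rac, gave -0.31 (0.6853).

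The other roles stayed closer to 0 or were more scattered. Among actin and Abl effectors (10 of 13 tested), the kinase Abl2 gave 0.21 and profilin Pfn1 0.20, and the Ena/VASP protein Evl gave -1.19, at 0.127 to 1.56 RPKM in single libraries (limma adjusted p 0.6527, 0.6668 and 0.678). Among proteoglycans that carry heparan sulfate, on which Slit binding depends, and the enzymes that build it (7 of 9 tested), Sdc2 gave -0.51, Ext2 -0.31 and Sdc1 -1.93, with Sdc1 near 0 in NrasG12D/+ library 1 (0.00119 RPKM). Among genes of Robo turnover and sorting (8 of 8 tested), the ubiquitin ligase Nedd4 gave -0.18 (limma adjusted p = 0.5028), its adaptor Ndfip1 -0.26 and Prrg4 -0.44. Among other ligands and co-receptors (4 of 16 tested), the netrin receptors Neo1 and Unc5a gave -0.36 and -0.57, dystroglycan Dag1 -0.16 and Cxcr4, named outside the rule, -0.01, at 17.7 ± 3.87 RPKM in wild type and 16.8 ± 2.84 in double mutants.

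**Figure D4:**
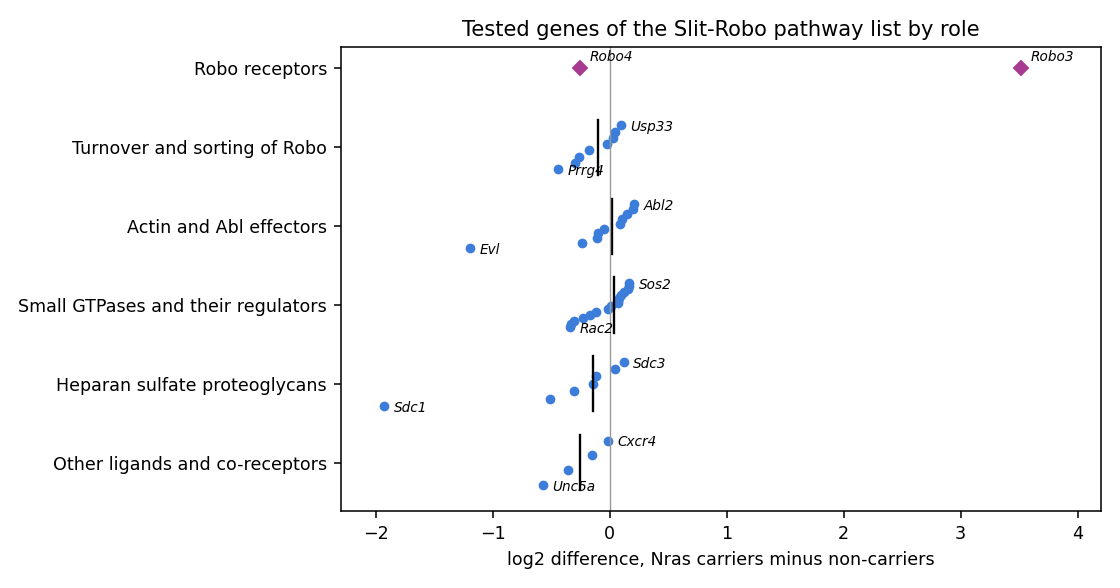
Log2 difference of NrasG12D carriers from non-carriers, averaged over the Tet2 genotypes (x axis), for each tested gene of the pathway list by role (y axis), with black bars at the median of a role and the lowest and highest gene of each role named. Robo3 stands at 3.52, chosen for that difference, while 45 pathway genes and Robo4 (-0.25) lie between -1.93 and 0.21.

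Genes around Robo3 and Robo4 on chromosome 9 were compared in the same fit. Within 250 kb of Robo3, 11 further genes were in the table and 10 passed the minimum (Slc37a2 did not), and none passed the limma threshold in any of the 8 comparisons. For the averaged Nras allele, the immunoglobulin-family gene Vsig2 gave -0.60 (limma adjusted p = 0.7216), Esam, an adhesion molecule of endothelium and HSCs, gave -0.24, and Ccdc15, Nrgn, Siae, Tbrg1 and Gm10177 lay between 0.10 and 0.20. Tmem218 gave -0.38, and Msantd2 (1.81 ± 1.64) and Spa17 (-1.10 ± 2.23) had errors about as large as their values or larger. An unadjusted p under 0.05, reached by 6.42% of all genes in double mutants against wild type, was reached there by Vsig2, at -1.44 (limma adjusted p = 0.7467). It was also reached by Vsig2, Nrgn and Gm10177, all lower, in double mutants against NrasG12D/+ and for the averaged Tet2 allele (-0.85, -0.41 and -0.97), and by Ccdc15 in the interaction (-0.78). Over all genes the shares were 4.04%, 3.81% and 3.38% in these 3 comparisons.

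**Figure D5:**
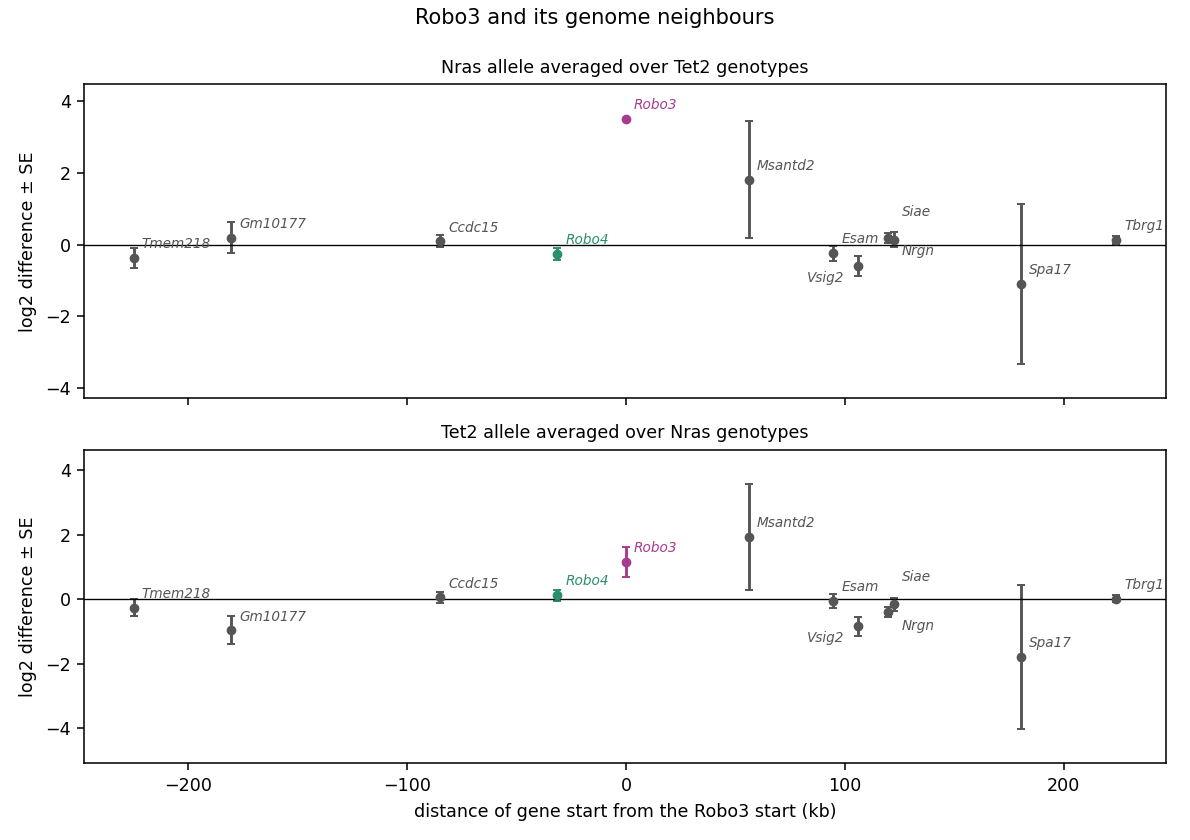
Log2 difference ± SE (y axis) of Robo3, Robo4 and the 10 tested neighbours by distance of the gene start from the Robo3 start in kb (x axis), for the averaged Nras allele (top) and the averaged Tet2 allele (bottom). Robo3 is drawn without an error in the top panel, at 3.52, and Robo4, 553 bases from its end, lies at -0.25 there and at 0.13 in the lower panel.

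The genes whose log2 RPKM followed Robo3 most closely over the 12 libraries, among 11105 compared, were Aspm (Pearson r = 0.922), Slc22a3 (0.916), H1f0 (0.903), Kat6a (0.897) and Tmpo (0.894). These are correlations over libraries that share the genotypes, so they are a description with no test. Once each genotype was centred on its own mean, r was 0.542 for Aspm, 0.299 for Slc22a3, 0.308 for H1f0, 0.097 for Kat6a and 0.526 for Tmpo. Aspm, a spindle protein, measured 4.56 ± 0.958 RPKM in wild type, 5.19 ± 0.414 in Tet2+/-, 7.38 ± 0.938 in NrasG12D/+ and 7.72 ± 0.859 in double mutants (SD, n = 3). Slc22a3, an organic cation transporter, measured 19.0 ± 1.67, 20.9 ± 2.63, 38.2 ± 2.73 and 39.9 ± 7.79 RPKM in the same order. Robo4 had r = -0.27 with Robo3, and 0.35 after centring.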

How the data were processed

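Total RNA of sorted HSCs was sequenced in 12 libraries of 4 genotypes, 3 each, grouped by the sample titles. Per the submitters' processing notes, CASAVA 1.8.2, TopHat2 and edgeR were used with mm10, with no roles given, and the strand setting of the counting is not given in the sources used here. The deposited values are log2 RPKM, listed as an other unit than counts. They equal whole reads plus a prior set for each library (mean 0.25 reads, 0.1738 to 0.3161), to 0.001 reads for all 18546 genes. They thus gave reads and depth. The lengths they imply were within 2% of the summed lengths of all GENCODE M21 transcripts for 71.1% of 17264 matched genes, which lowers RPKM against an exon-union length in those with several transcripts. Other genes, such as Robo1, had shorter implied lengths, which raises it. Differences within a gene are not affected.

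The log2 values were fitted with limma 3.58.1 (R 4.3.3), with 1 mean per genotype, a variance trend and 8 residual degrees of freedom, on the 15478 genes at 1 RPKM or more in at least 3 libraries, which left out 3068. Tests were two-sided. The 3 comparisons with wild type share its libraries. A count of 0 was bounded by 3 reads, for counting error only, since reads that carry no molecular identifier can be copies of 1 molecule. Promoter sequences are from RefSeq (GRCm38.p6), and both Robo genes that were shown matched by symbol.

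The members, lists and tests were chosen with earlier results of these data known. The text names all members, the 5 genes most like Robo3, leaving out clone-style names, up to 3 genes per pathway role by p in the averaged Nras comparison, and all neighbours within 250 kb. One listed HSC marker is not reported here and was left out of the marker sum. Settings tried were no minimum, log2(RPKM + 0.5), median centring, a replicate block, quantile normalization, a fit of only the groups in a comparison, and each library left out. Added after seeing the data were voom on the recovered reads, a fit that left out the 2 libraries with the most undetected genes (3824 and 3268), and exon-union lengths.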

Additional observations from a re-analysis of the deposited data

How the results depend on the processing

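Robo4 in every comparison, and Robo3 outside the comparisons of carriers with non-carriers of NrasG12D, passed in 0 of 157 values over the alternatives. That count includes the interaction of Robo3, which is given elsewhere only as a description. The pathway list and the neighbours also passed in 0 of 157. Robo3 kept its direction in all comparisons of carriers with non-carriers of NrasG12D. On the log2(RPKM + 0.5) scale it moved to 1.93 (NrasG12D/+ against wild type), 2.56 (double against wild type), 2.06 (double against Tet2+/-) and 1.996 (averaged). With quantile normalization it moved to 4.95 (double against Tet2+/-) and 4.56 (averaged). Its Tet2+/- against wild type difference turned to -0.066 with quantile normalization, and its interaction to 0.785 there and 0.131 on the log2(RPKM + 0.5) scale. For Robo4, NrasG12D/+ against wild type turned to 0.078 without Nras replicate 2 and 0.164 without the 2 libraries that had the most undetected genes (wild-type 1 and NrasG12D/+ 2). Double against NrasG12D/+ turned to -0.203 in both cases, the averaged Tet2 allele to -0.009 without Nras replicate 2, and the interaction to 0.039 without Nras replicate 1 and 0.003 without Tet2 replicate 1. Leaving out 1 library gave -0.35 to 0.078, -0.203 to 0.224, -0.009 to 0.205 and -0.388 to 0.039 in these 4 comparisons of Robo4. The cause of these changes was not tested.

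Counts of genes called over the whole table were small and unstable. NrasG12D/+ against wild type (1 gene) gave 3 on the log2(RPKM + 0.5) scale, 0 with quantile normalization, 0 with only the groups compared, 0 with voom and 3 without the 2 libraries. Tet2+/- against wild type (1) and double against wild type (1) each gave 0 in those 4 settings and 2 without the 2 libraries. Double against NrasG12D/+ (0) gave 2 with only the groups compared and 1 without the 2 libraries. Double against Tet2+/- (1) gave 4 with only the groups compared, 0 with the replicate block, 0 with voom and 8 without the 2 libraries. The interaction (2) gave 0 on the log2(RPKM + 0.5) scale, 0 with quantile normalization, 0 with the replicate block and 0 with voom. The averaged Nras allele (5) gave 8 with median centring, 1 with quantile normalization and 20 with voom. Leaving out 1 library gave 1 to 18, 1 to 20, 1 to 17, 0 to 12, 0 to 6, 0 to 6 and 2 to 17 genes in these comparisons, in the same order, and 0 to 7 for the averaged Tet2 allele (0).

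The replicate numbers do not pair the libraries: 2 of 18 same-number pairs correlated above 0.1 (-0.125 to 0.136). With the replicate block, members called stayed at 0. The planned edgeR test was not run, since the deposited values are not counts, and voom took its place. Where 1 library is left out, its group is assumed to vary like the others. Robo1 (median of 134 reads) and Slit2 (192.5) varied widely within genotypes, and Slit3 had 0 reads in 7 libraries. No difference between genotypes was detected for them, and the cause of their spread was not tested.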
